A study of Mus musculus x Mus spretus with 8 samples.

Results

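Gstk1, Cxcl12, Rassf4 and Gpnmb are 4 protein-coding genes of mouse chromosome 6, out of 49670 genes in the count table. They were chosen because, in earlier results of the same counts, most of their reads came from genome 2 and their RNA was lower in libraries in which the genes around them had lost genome 2 reads. The values that chose them are therefore given as a description, with standard errors and without tests. RNA sequencing covered 8 libraries of Patski cells, a fibroblast line from a female hybrid mouse (C57BL/6 X SPRET/EiJ), grown in DMEM with serum. The libraries carry 4 genotype labels with 2 libraries each: stc1 -/-, pygo1 -/-, rlim -/- and wild type (WT). They are called Stc1-labelled, Pygo1-labelled, Rlim-labelled and WT libraries here, and Stc1-KO, Pygo1-KO, Rlim-KO and WT in the plots.

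The submitters describe the knockout lines as separate homozygous null mutants. Whether the 2 libraries of a label come from separate lines is not clear beyond that description. If they do, differences between lines of 1 label enter the spread. Between the 2 Rlim-labelled libraries the median chi-square per gene was 1.74. It was 3.34 for WT, 12.8 for Pygo1 and 34.6 for Stc1, and counting alone gives 0.455. The labels do not say whether the WT pair came from separate cultures, so p-values measure only the spread between these libraries. The median gene differed by 0.35 (log2) between the Stc1-labelled libraries, by 0.19 between the Pygo1-labelled, by 0.06 between the Rlim-labelled and by 0.10 between the WT libraries. RNA of the targeted gene was not called lower under any label (edgeR quasi-likelihood test, log2 fold change 3.37 ± 1.15 for Stc1, adjusted p = 0.236; -0.63 ± 0.84 for Pygo1, adjusted p = 0.715; 0.33 ± 0.37 for Rlim, adjusted p = 0.699, SE, n = 2 against 2), which is why the groups are named by their labels. By library, Stc1 had 265 and 5138 reads in the Stc1-labelled and 295 and 251 in the WT libraries. Pygo1 had 199 and 49 in the Pygo1-labelled and 191 and 195 in the WT libraries. Rlim had 5489 and 4997 in the Rlim-labelled and 4393 and 4099 in the WT libraries. Libraries held 73128996 to 81500061 counts, and 50.64 to 52.64% of counts carried a genome.

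In a hybrid cell each autosomal gene has a copy from each parent, and reads over positions where the parental sequences differ tell the copies apart. The files name the copies genome 1 and genome 2 without saying which parent each is. Xist, the RNA made by the inactive X chromosome, was 99.12 to 99.68% genome 1 in the 8 libraries, and in Patski cells the inactive X is known to be the C57BL/6 one. Where a chromosome copy is absent or silent, a gene can make RNA from the other copy only, at the level that copy has. The genome 2 share used below is the percentage of genome 2 reads among reads with a genome.

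Gstk1 encodes the kappa-class glutathione transferase, an enzyme of mitochondria and peroxisomes. It lies at chr6:42245935-42250447 on the plus strand (GRCm38, the mm10 build). Cxcl12 encodes the chemokine SDF-1, a secreted ligand of the receptor Cxcr4 and of the scavenging receptor Ackr3, and lies at chr6:117168535-117181367 on the plus strand. Rassf4 encodes an adaptor of the Ras-association family, whose members bind Ras-type GTPases and the Hippo kinases, and lies at chr6:116633008-116673952 on the minus strand. Gpnmb encodes a membrane glycoprotein of lysosomes and melanosomes, known from macrophages, osteoclasts and melanocytes and from its control by the MiT transcription factors. It lies at chr6:49036546-49070929 on the plus strand. Rassf4 and Cxcl12 are 0.52 Mb apart between midpoints, and Gstk1 and Gpnmb 6.81 Mb. Depp1, on the opposite strand, and Mir7043 lie inside Rassf4 without sharing exon bases with it; the other 3 genes overlap no annotated gene.

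All 4 genes drew most of their RNA from genome 2 in WT, which was not the rule around them. Over the 598 chromosome 6 genes that held 50 or more reads with a genome in both WT libraries, the median genome 2 share was 28.3%. Gpnmb stood at 98.1% with 11 of these genes above it, Rassf4 at 94.7% with 14 above, Gstk1 at 81.0% with 19 above, and Cxcl12 at 76.5% with 22 above. In CPM per kb of exon, which allows levels of different genes to be compared, the WT mean was 37.8 for Gpnmb, 13.2 for Gstk1, 4.19 for Rassf4 and 1.89 for Cxcl12. Gpnmb was thus the most abundant of the 4 and Cxcl12 the least.

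Gstk1 had 1359 and 1085 reads in the Stc1-labelled libraries, 173 and 23 in the Pygo1-labelled, 6 and 2 in the Rlim-labelled, and 1447 and 1599 in the WT libraries. It was close to absent under the Rlim label and low under the Pygo1 label, where the 2 libraries differed from each other. In CPM, the counts scaled to library size with TMM factors, the means were 16.6 ± 3.10 in Stc1-labelled, 1.25 ± 1.32 in Pygo1-labelled, 0.052 ± 0.037 in Rlim-labelled and 19.4 ± 0.841 in WT libraries (SD, n = 2 each). The fitted log2 fold change against WT was -0.23 ± 0.68 for Stc1, -3.95 ± 0.77 for Pygo1 and -8.50 ± 1.05 for Rlim (edgeR, SE), the last 2 corresponding to 15.5-fold and 363-fold lower RNA. With 6 and 2 reads behind it, the Rlim value is the least certain of the 4 genes' folds.

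Cxcl12 had 353 and 1144 reads in the Stc1-labelled libraries, 78 and 104 in the Pygo1-labelled, 10 and 9 in the Rlim-labelled, and 1214 and 1201 in the WT libraries. Both Pygo1-labelled and both Rlim-labelled libraries lay far below WT, and Stc1-labelled library 1 also did, while Stc1-labelled library 2 was at the WT level. Means were 10.1 ± 7.31 CPM in Stc1-labelled, 1.21 ± 0.318 in Pygo1-labelled, 0.123 ± 0.011 in Rlim-labelled and 15.4 ± 0.539 in WT libraries (SD, n = 2 each). The log2 fold change was -0.62 ± 0.48 for Stc1, -3.68 ± 0.53 for Pygo1 (12.8-fold lower) and -6.95 ± 0.66 for Rlim (123-fold lower).

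Rassf4 had 1850 and 566 reads in the Stc1-labelled libraries, 846 and 860 in the Pygo1-labelled, 91 and 87 in the Rlim-labelled, and 2961 and 3081 in the WT libraries. It was below WT in all 6 knockout-labelled libraries, and nearest to WT in Stc1-labelled library 1. Means were 16.6 ± 12.8 CPM in Stc1-labelled, 11.2 ± 0.840 in Pygo1-labelled, 1.16 ± 0.053 in Rlim-labelled and 38.6 ± 0.029 in WT libraries (SD, n = 2 each). The log2 fold change was -1.22 ± 0.48 for Stc1 (2.33-fold lower), -1.78 ± 0.49 for Pygo1 (3.43-fold lower) and -5.06 ± 0.57 for Rlim (33.4-fold lower).

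Gpnmb did not follow the other 3 genes under the Pygo1 label. It had 17541 and 43345 reads in the Stc1-labelled libraries, 27372 and 14026 in the Pygo1-labelled, 2928 and 2772 in the Rlim-labelled, and 18711 and 19803 in the WT libraries. The Pygo1-labelled libraries lay on either side of WT, Stc1-labelled library 2 was above it, and the Rlim-labelled libraries were below it. Means were 410 ± 236 CPM in Stc1-labelled, 269 ± 107 in Pygo1-labelled, 37.0 ± 1.95 in Rlim-labelled and 246 ± 3.14 in WT libraries (SD, n = 2 each). The log2 fold change was 0.74 ± 0.41 for Stc1, 0.13 ± 0.41 for Pygo1 and -2.73 ± 0.44 for Rlim (6.65-fold lower).

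**Figure D1:**
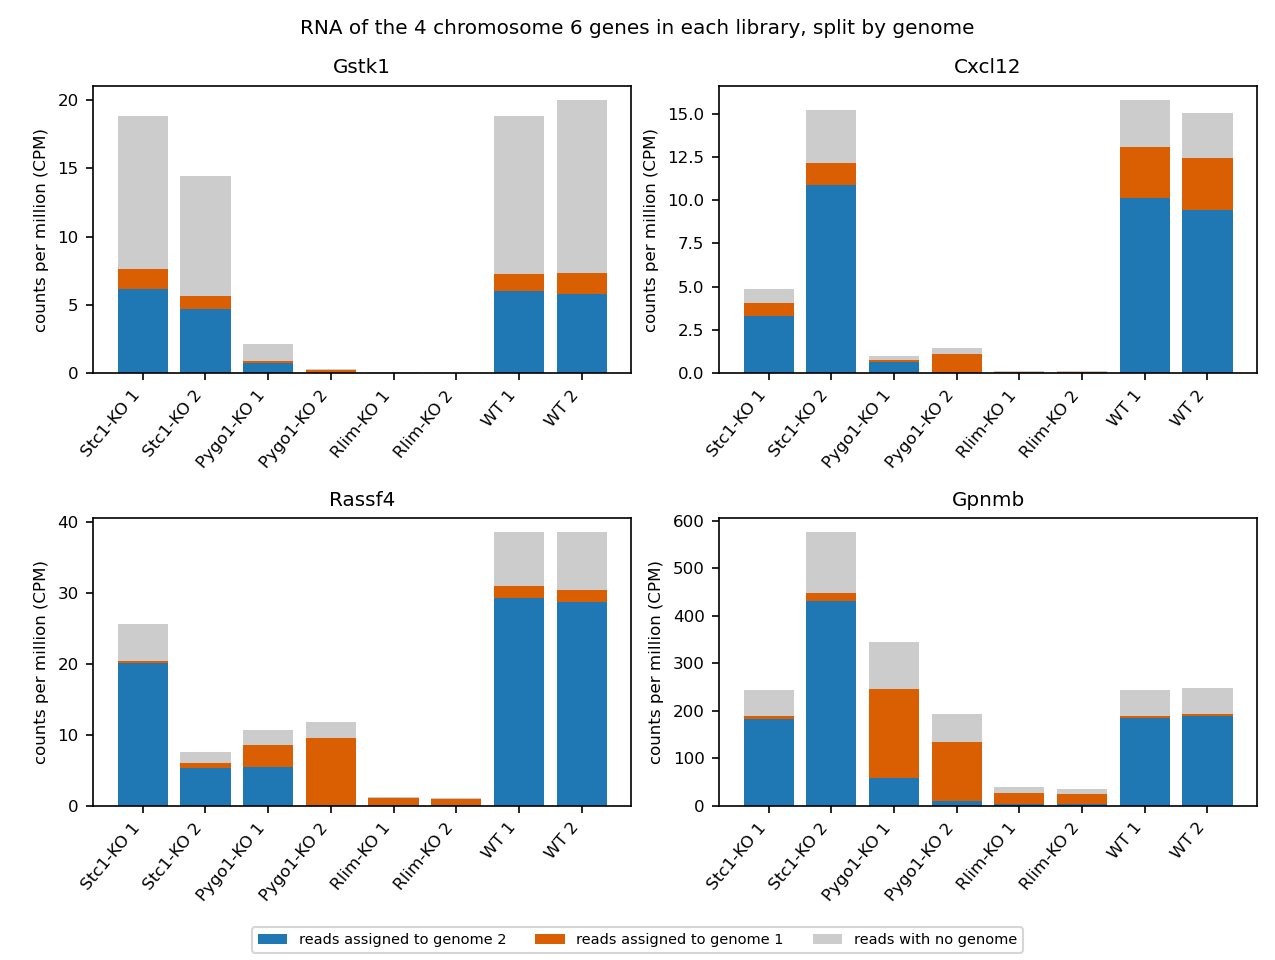
CPM of the 4 genes in each library, with bars split into reads assigned to genome 2, reads assigned to genome 1 and reads with no genome; each panel has its own scale from 0. The Rlim-KO bars are near 0 for Gstk1, Cxcl12 and Rassf4, and the Gpnmb bars of Pygo1-KO 1 and 2 (344.5 and 193 CPM) are mostly genome 1.

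Both libraries of a label lay below both WT libraries for 2 of the 4 genes under the Stc1 label (Gstk1 and Rassf4), for 3 under the Pygo1 label and for 4 under the Rlim label. Over all 17839 genes tested the same pattern was found in 22.2%, 31.0% and 35.6% of genes under the Stc1, Pygo1 and Rlim labels. The counts that chose the 4 genes enter this comparison, so nothing is read from it. The 4 genes passed the filter on low counts through the libraries in which they are high.

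The genes around the 4 showed which libraries had lost genome 2 there. For each gene the local share was taken as the median genome 2 share of the 5 nearest genes on each side that used both genomes in WT (20 to 80% genome 2) and held 50 or more reads with a genome per library. Among the genes so used, Gstk1 lay between Ephb6 and Casp2, Gpnmb between the predicted gene Gm7932 and Malsu1, Rassf4 between Zfp422 and Tmem72, and Cxcl12 between Tmem72 and Zfp637. Rassf4 and Cxcl12 shared 9 of their 10 neighbours, so their local shares are hardly separate measurements; Gstk1 and Gpnmb shared 0.

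Around Gstk1 the local share was 28.3 and 44.4% in the Stc1-labelled libraries, 4.54 and 0.14% in the Pygo1-labelled, 0.08 and 0.04% in the Rlim-labelled, and 29.9 and 29.6% in the WT libraries. Around Gpnmb it was 29.0 and 47.7% in the Stc1-labelled, 3.34 and 0.30% in the Pygo1-labelled, 0.21 and 0.48% in the Rlim-labelled, and 30.6 and 29.5% in the WT libraries. Around Rassf4 it was 33.1 and 35.3% in the Stc1-labelled, 8.09 and 1.35% in the Pygo1-labelled, 1.39 and 0.46% in the Rlim-labelled, and 35.6 and 33.0% in the WT libraries. Local genome 2 RNA was thus nearly gone in Pygo1-labelled library 2 and both Rlim-labelled libraries, low but measurable in Pygo1-labelled library 1, and near or above the WT share in the Stc1-labelled libraries. Values around Cxcl12 were 30.9 and 33.2% in the Stc1-labelled, 6.45 and 0.49% in the Pygo1-labelled, 0.89 and 0.13% in the Rlim-labelled, and 33.2 and 31.5% in the WT libraries. In RNA of a whole culture, fewer cells with a copy and less RNA from it per cell cannot be told apart.

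The 4 genes' own genome 2 shares stood above the medians of their neighbours in both Stc1-labelled libraries, Pygo1-labelled library 1 and both WT libraries. The 4 genes were chosen for mostly genome 2 reads, and the neighbours for using both genomes in WT. That choice favours this order in WT and in the Stc1-labelled libraries, which kept the local share, so nothing is read from it there. For Gstk1 the share was 80.7 and 83.0% in the Stc1-labelled libraries, 87.3 and 5.88% in the Pygo1-labelled, and 83.0 and 78.9% in the WT libraries; 3 and 2 reads with a genome in the Rlim-labelled libraries give no usable share. For Cxcl12 it was 81.6 and 89.7% in the Stc1-labelled, 82.3 and 1.27% in the Pygo1-labelled, and 77.3 and 75.8% in the WT libraries, with 7 reads in each Rlim-labelled library. Both genes thus kept a share above 80% in Pygo1-labelled library 1, where the neighbours' median was 4.54% and 6.45%. This share rests on 71 reads for Gstk1 (95% Wilson interval 77.6 to 93.2%) and on 62 reads for Cxcl12 (71.0 to 89.8%), and the intervals cover counting error only.

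For Rassf4 the genome 2 share was 98.2 and 87.0% in the Stc1-labelled libraries, 64.3 and 0.72% in the Pygo1-labelled, 9.09 and 6.67% in the Rlim-labelled, and 94.9 and 94.5% in the WT libraries. For Gpnmb it was 96.6 and 96.3% in the Stc1-labelled, 23.9 and 6.94% in the Pygo1-labelled, 9.19 and 9.99% in the Rlim-labelled, and 97.9 and 98.2% in the WT libraries. Gpnmb thus kept a genome 2 share of 6.94 to 9.99% in the 3 libraries in which its neighbours' median was 0.48% or less, though single neighbours there reached 19.5 to 21.3%. Behind it stood 677 genome 2 reads in Pygo1-labelled library 2, and 192 and 194 in the Rlim-labelled libraries. Among the 4 genes, Gpnmb is the most deeply read, with 1942 to 33666 reads with a genome.

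**Figure D2:**
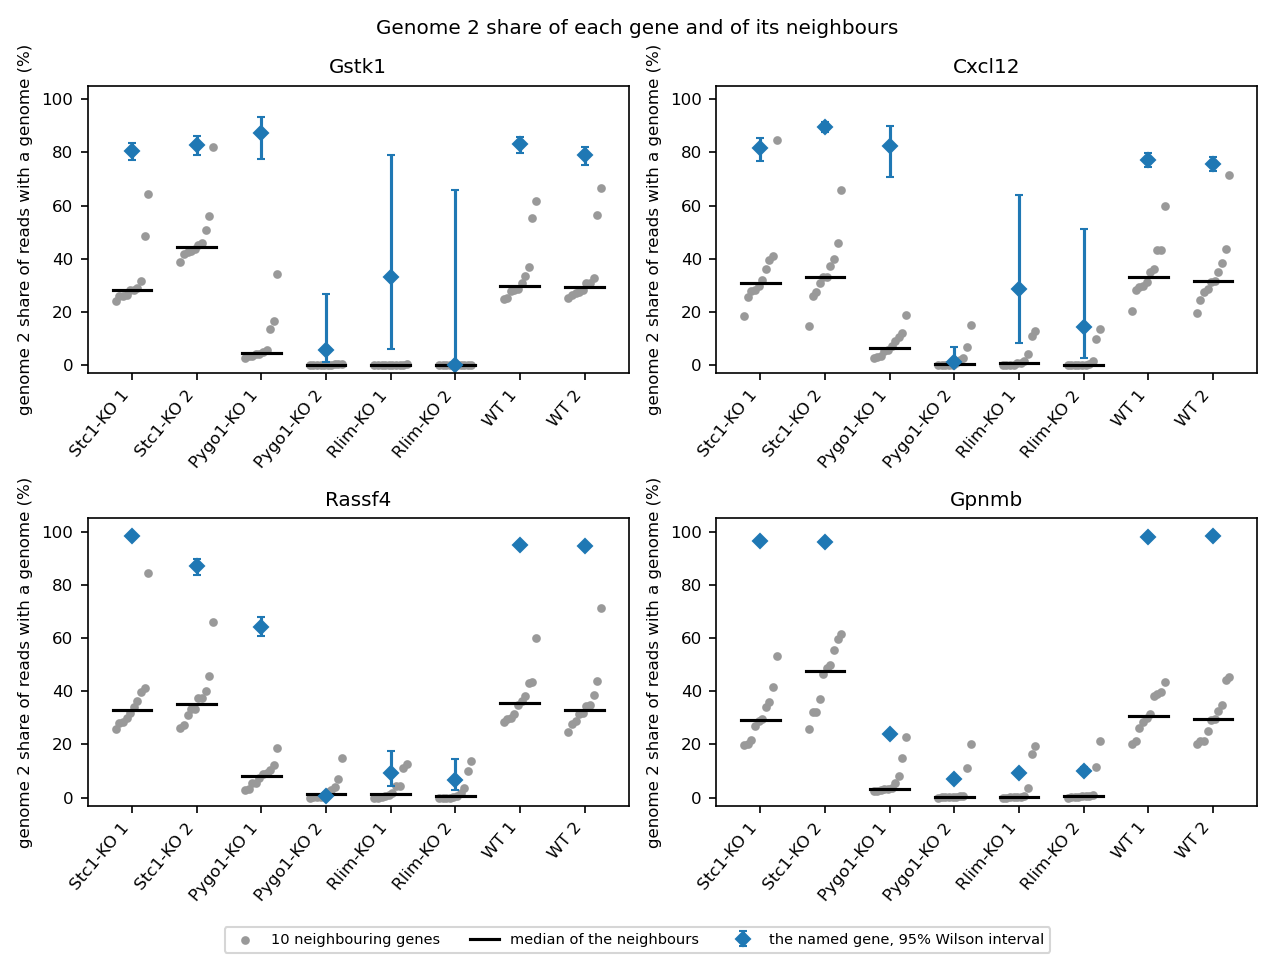
Genome 2 share (percentage of reads with a genome) of each named gene, as a diamond with its 95% Wilson interval, with its 10 neighbouring genes as grey points and their median as a black line, in each library. The neighbours' medians are between 28.3 and 47.7% in Stc1-KO, between 0.14 and 8.09% in Pygo1-KO, between 0.04 and 1.39% in Rlim-KO and between 29.5 and 35.6% in WT libraries. The named genes lie above these medians in the Stc1-KO and WT libraries, an order that the choice of named genes and neighbours favours.

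Set against WT in genome 2 CPM, the loss in Pygo1-labelled library 1 was graded. Gstk1 kept 13.1% of its WT genome 2 RNA, beside a median of 12.6% for its neighbours. For Rassf4 it was 18.8% beside 16.5%, for Cxcl12 6.57% beside 17.0%, and for Gpnmb 31.5% beside 19.0%. Gstk1 and Rassf4 thus sat near their neighbours, Cxcl12 lower and Gpnmb higher. In Pygo1-labelled library 2 and both Rlim-labelled libraries genome 2 RNA was 0.00 to 0.32% of WT for Gstk1, Cxcl12 and Rassf4, and 1.33 to 4.99% for Gpnmb.

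Genome 1 reads, which the neighbours kept, separated the 4 genes. Genome 1 RNA of the neighbours was 95.7 to 132.8% of WT (medians) around the 4 genes in the Pygo1- and Rlim-labelled libraries. Gstk1 had 107 and 72 genome 1 reads in the Stc1-labelled libraries, 9 and 16 in the Pygo1-labelled, 2 and 2 in the Rlim-labelled, and 95 and 124 in the WT libraries. Cxcl12 had 54 and 94 in the Stc1-labelled, 11 and 78 in the Pygo1-labelled, 5 and 6 in the Rlim-labelled, and 228 and 240 in the WT libraries. For both genes genome 1 RNA was lower as well: the log2 change (1 read added per library) was -2.97 under the Pygo1 label and -5.18 under the Rlim label for Gstk1, and -2.28 and -5.15 for Cxcl12 under the same labels.

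Rassf4 had 27 and 59 genome 1 reads in the Stc1-labelled libraries, 242 and 687 in the Pygo1-labelled, 70 and 70 in the Rlim-labelled, and 121 and 133 in the WT libraries. Its genome 1 RNA was 188 and 583% of WT in the Pygo1-labelled libraries and 56.6 and 55.5% in the Rlim-labelled. Gpnmb had 456 and 1257 genome 1 reads in the Stc1-labelled libraries, 14906 and 9085 in the Pygo1-labelled, 1897 and 1748 in the Rlim-labelled, and 303 and 269 in the WT libraries. Its genome 1 RNA averaged 42.7 times the WT level under the Pygo1 label and 6.47 times under the Rlim label. Genome 1 reads of Gpnmb were thus higher in all 6 knockout-labelled libraries than in WT, and those of Gstk1 and Cxcl12 were lower in the Pygo1- and Rlim-labelled libraries. The Rlim- and Pygo1-labelled libraries, which share the loss of local genome 2 reads, therefore differed in genome 1 RNA of Rassf4 and Gpnmb.

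**Figure D3:**
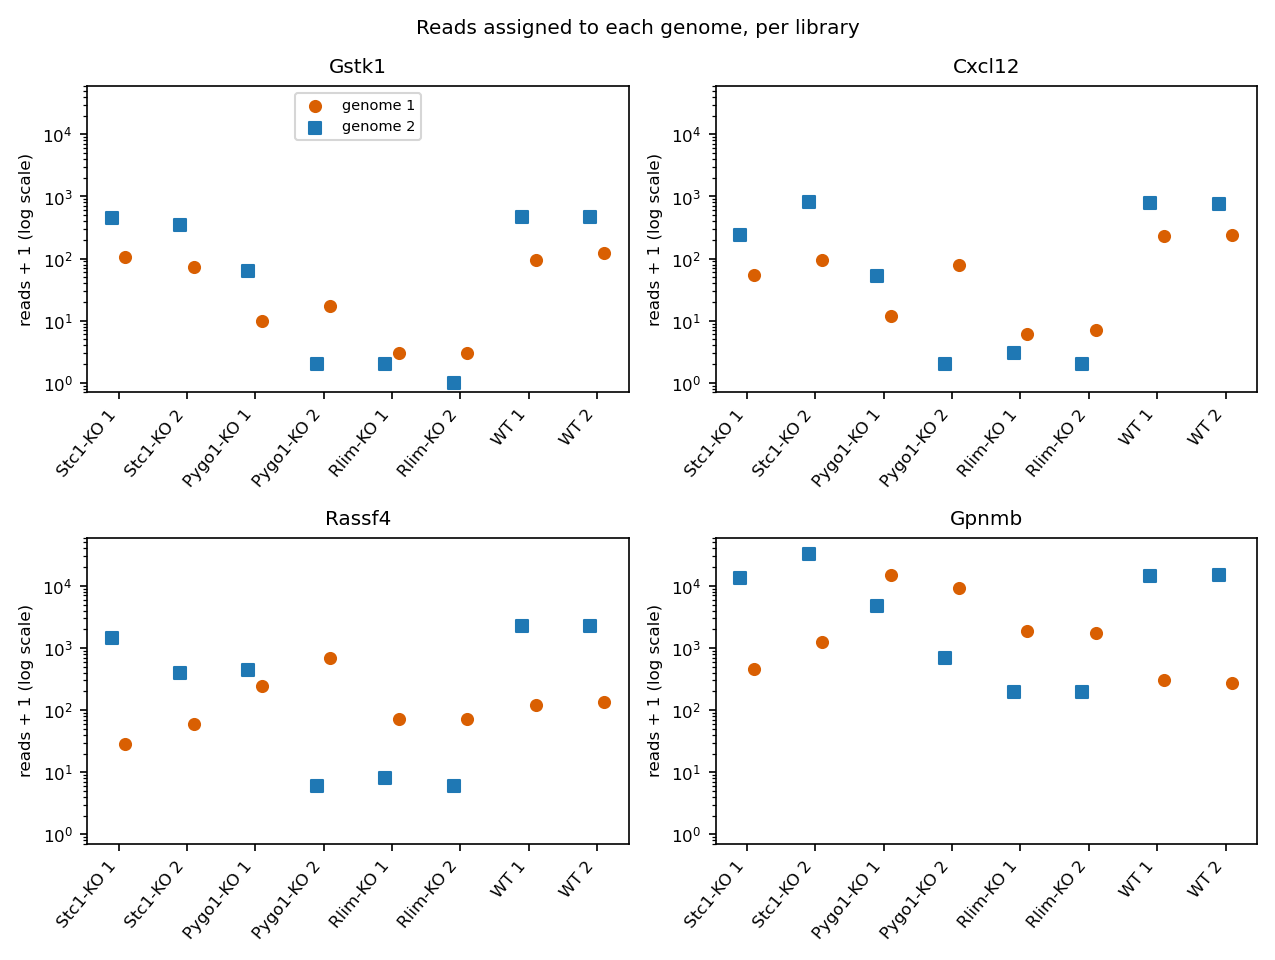
Reads assigned to genome 2 (squares) and genome 1 (circles) for each gene and library, with 1 read added, on a log axis shared by the panels. Genome 1 reads of Gpnmb are 14906 and 9085 in Pygo1-KO against 303 and 269 in WT libraries, while those of Gstk1 are 2 and 2 in Rlim-KO against 95 and 124 in WT libraries.

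The Stc1-labelled libraries kept genome 2 around the 4 genes and still differed from WT and from each other. Stc1-labelled library 1 had the low Cxcl12 count (31.7% of WT in CPM) with a Gpnmb count near WT (98.8%). Stc1-labelled library 2 had a low Rassf4 count (19.5% of WT) and a high Gpnmb count (234.6%), with Cxcl12 near WT (98.7%). The local share was raised around Gstk1 and Gpnmb in library 2, where the neighbours' median genome 2 RNA was 126.9 and 119.9% of WT and their genome 1 RNA 56.0 and 64.8%. Around Cxcl12 and Rassf4 in the same library the neighbours stood at 99.5 and 105.3% of WT for genome 2 and at 100.3% for genome 1. Around Cxcl12 in Stc1-labelled library 1 the local share was 30.9%, against 33.2 and 31.5% in the WT libraries, and the neighbours stood at 96.3% of WT for genome 2 and 92.3% for genome 1. In Stc1-labelled library 2 the endothelial marker Cdh5 had 100.3 CPM, against 1.59 and 1.54 CPM in the WT libraries, and its part in these differences was not tested.

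Over chromosome 6 as a whole, 433 genes read from both genomes gave a median genome 2 share of 30.6 and 42.7% in the Stc1-labelled libraries, 5.76 and 0.28% in the Pygo1-labelled, 0.37 and 0.33% in the Rlim-labelled, and 30.1 and 30.4% in the WT libraries. Shares on the other autosomes had medians of 42.8 to 47.2%. For total RNA of the 913 other chromosome 6 genes tested, the median log2 fold change was -0.10 for Stc1, -0.26 for Pygo1 and -0.32 for Rlim. Over all genes the medians were 0.014, -0.001 and 0.006. The 4 genes were chosen for lower RNA in these same counts, so nothing is read from their distance to these medians. Called lower at an adjusted p under 0.05 in edgeR were 3 of the 913 (0.329%) under the Stc1 label, 16 (1.75%) under the Pygo1 label and 20 (2.19%) under the Rlim label. Among all genes tested 0.291%, 0.807% and 0.617% were called lower under these labels. The counts rest on single libraries: without either WT library or either Rlim-labelled library 0 chromosome 6 genes were called lower under each label. The chromosome 6 counts were higher under each label without either Stc1-labelled library, and lower for Pygo1 without Pygo1-labelled library 2. Calls over all genes moved the same way in each of these fits, so nothing is read about chromosome 6 from them.

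Genes of a higher WT share had lower medians under the Rlim and Pygo1 labels. Under the Rlim label the median log2 fold change was -0.20 over 127 genes with 0 to 20% genome 2 in WT, -0.38 over 353 genes with 20 to 40%, and -0.44 over 82 genes with 40 to 60%. The 2 bins above hold under 20 genes each, 15 with a median of -0.54 and 17 with -0.57. Under the Pygo1 label the medians in the same order were -0.10, -0.36, -0.43, -0.50 and -0.63, and under the Stc1 label -0.21, -0.18, -0.15, 0.06 and -0.09. In the bin of 80 to 100% the lower quartile was -2.23 under the Pygo1 label and -2.16 under the Rlim label, and in the bin of 60 to 80% it was -0.72 and -1.25. Gstk1 and Cxcl12 lay below the lower quartiles of their bins under both labels, and Rassf4 and Gpnmb under the Rlim label. Under the Pygo1 label Rassf4, at -1.78, lay between the lower quartile and the median of its bin. These genes were chosen for lower RNA in the same counts, so nothing is read from their places in the bins.

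**Figure D4:**
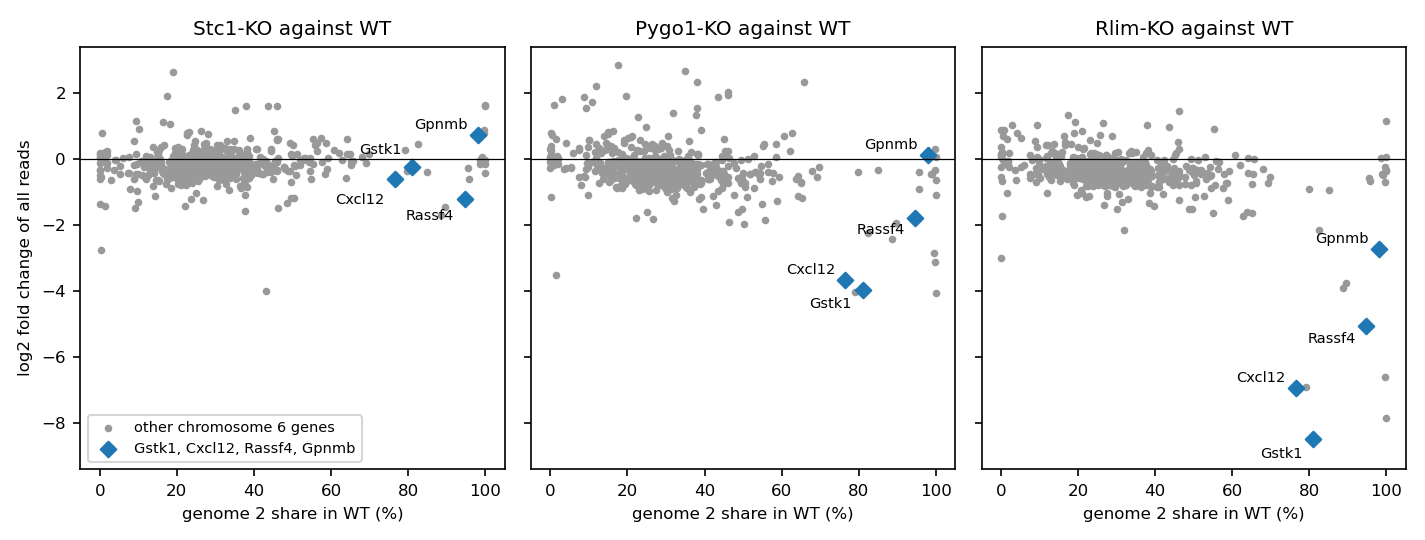
Log2 fold change of all reads against WT, plotted against the mean genome 2 share in the WT libraries, for chromosome 6 genes that held 50 or more reads with a genome in both WT libraries; grey points are other genes and blue diamonds the 4 named ones. In the Rlim-KO panel the diamonds lie at -2.73 (Gpnmb), -5.06 (Rassf4), -6.95 (Cxcl12) and -8.50 (Gstk1).

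A set defined from WT alone gave a comparison that the choice of the 4 genes did not use. It held the 13 other chromosome 6 genes with at least 90% genome 2 in both WT libraries, of which 8 are processed pseudogenes and 5 are protein-coding (Sgce, Peg10, Sem1, Arf5 and A2m). In edgeR 1 of the 13 was called lower under the Pygo1 label and 0 under the Stc1 and Rlim labels. Among all genes tested 0.807% were called lower under the Pygo1 label. The called gene was Sem1, a small proteasome subunit, with a log2 fold change of -0.90 ± 0.15 (adjusted p = 0.0383, n = 2 against 2). Its own genome 2 share was 91.1 and 92.8% in the Pygo1-labelled libraries and 95.7% in both WT libraries. The log2 fold change of Sem1 was -0.59 ± 0.15 under the Stc1 label and -0.66 ± 0.15 under the Rlim label. The call was lost without either WT library (adjusted p = 0.291 and 0.340), without Pygo1-labelled library 1 (0.0819) and without either Rlim-labelled library (0.134 and 0.135).

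The 13 genes differed in how their reads behaved. Sgce and Peg10 are an imprinted pair, transcribed from the paternal copy, and lie near the start of the chromosome, where the local share stayed at 20.9 and 20.7% in the Rlim-labelled libraries but was 5.48 and 0.20% in the Pygo1-labelled. Sgce had 650 and 718 reads in the Stc1-labelled libraries, 98 and 0 in the Pygo1-labelled, 646 and 604 in the Rlim-labelled, and 855 and 763 in the WT libraries. Peg10, named after its values were seen, had 1238 and 1831 in the Stc1-labelled, 123 and 0 in the Pygo1-labelled, 1172 and 1144 in the Rlim-labelled, and 497 and 568 in the WT libraries. Reads of the pair were thus present where the local genome 2 share was kept and absent in the library where it was 0.20%. For Sgce the log2 fold change under the Pygo1 label was -4.05 ± 1.20 (edgeR, adjusted p = 0.128), which did not pass the threshold.

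A2m, a secreted protease inhibitor, lies beyond Cxcl12 on the chromosome and, like Gstk1, was close to absent under the Rlim label. It had 865 and 663 reads in the Stc1-labelled libraries, 248 and 2 in the Pygo1-labelled, 1 and 1 in the Rlim-labelled, and 264 and 263 in the WT libraries. Unlike Gstk1, it was near the WT level in Pygo1-labelled library 1. Its log2 fold change under the Rlim label was -7.85 ± 2.0 (edgeR, adjusted p = 0.113).

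Arf5, a small GTPase of the Golgi, and most of the pseudogenes did not follow the local share. Around Arf5 the local share was 5.27 and 0.19% in the Pygo1-labelled and 0.07 and 0.15% in the Rlim-labelled libraries, yet its own share was 93.8 and 93.5% in the Pygo1-labelled, 91.0 and 91.3% in the Rlim-labelled, and 96.1 and 94.98% in the WT libraries. Its log2 fold change under the Rlim label was -0.57 ± 0.13 (edgeR, adjusted p = 0.0853). Of the 13 genes, 9 kept a genome 2 share of at least 50% in Pygo1-labelled library 2 and both Rlim-labelled libraries, and every share with reads behind it was 91.0 to 100%. The local share was under 10% in these 3 libraries for 10 of the 13, with Sgce, Peg10 and Sem1 as the exceptions. For such genes, several of them copies of genes elsewhere, an assignment to genome 2 did not track the chromosome 6 copy, and the way in which reads were assigned was not stated in the labels. In Pygo1-labelled library 2, by comparison, the shares of Gstk1, Cxcl12, Rassf4 and Gpnmb were 0.72 to 6.94%.

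Lowering the limit to 80% gave 17 genes, and the 3 of them with a share under 10% in these 3 libraries are Depp1, Wipf3 and Akr1b7; they and Reep1 were chosen after their values were seen. Depp1, which lies in an intron of Rassf4, had 58 and 172 reads in the Stc1-labelled libraries, 92 and 78 in the Pygo1-labelled, 24 and 24 in the Rlim-labelled, and 319 and 349 in the WT libraries. It fell under the Rlim label (log2 fold change -3.77 ± 0.50, edgeR, adjusted p = 0.0279), a call lost without either WT library (0.287 and 0.291) or either Rlim-labelled library (0.343 and 0.336). Without the strand of the counting, intron reads of Rassf4 and reads of Depp1 cannot be told apart. Akr1b7, an aldo-keto reductase, had 40 and 22 reads in the Stc1-labelled, 24 and 15 in the Pygo1-labelled, 7 and 7 in the Rlim-labelled, and 108 and 107 in the WT libraries. It fell under the Pygo1 label (log2 fold change -2.42 ± 0.40, edgeR, adjusted p = 0.0383) and the Rlim label (-3.89 ± 0.44, 0.0200), and both calls were lost without either WT library (0.320 and 0.301 for Pygo1, 0.246 and 0.252 for Rlim) or either Rlim-labelled library (0.126 and 0.128, 0.273 and 0.295). The Pygo1 call was also lost without Pygo1-labelled library 1 (0.0787) or 2 (0.128). Wipf3, which binds the actin regulator N-WASP, had 2044 and 922 reads in the Stc1-labelled, 382 and 108 in the Pygo1-labelled, 223 and 288 in the Rlim-labelled, and 1167 and 1153 in the WT libraries. Reep1, a protein that shapes the endoplasmic reticulum, was 79.1% genome 2 in WT and had 347 and 98 reads in the Stc1-labelled, 22 and 2 in the Pygo1-labelled, 3 and 0 in the Rlim-labelled, and 214 and 183 in the WT libraries. Its fitted change was -6.91 ± 1.32 under the Rlim label (edgeR, adjusted p = 0.0624). With 3 and 0 reads behind it, its size is uncertain: it was -10.6 without Rlim-labelled library 1 and -5.95 without library 2.

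Genes that work with the 4 proteins were read from 4 lists, and counts below are of list members measured, tested over all 17839 genes in edgeR. Over all genes, 0.577% were called under the Stc1 label, 2.35% under the Pygo1 label and 1.4% under the Rlim label, and those called higher made up 0.286%, 1.54% and 0.785%. These shares are at an adjusted p. For the list counts at an unadjusted p no share over all genes is given here, so nothing is read from those counts. In the CXCL12 axis (11 of 12 members tested) 1 gene was called, higher under the Pygo1 label, and 0 under the other labels; at an unadjusted p under 0.05 there were 2 for Stc1, 3 for Pygo1 and 0 for Rlim. The called gene, Dpp4, is a membrane peptidase that cleaves and inactivates CXCL12. It had 16.4 and 13.8 CPM in the Stc1-labelled libraries, 21.4 and 26.3 in the Pygo1-labelled, 9.48 and 8.30 in the Rlim-labelled, and 9.04 and 8.27 in the WT libraries (Pygo1 against WT log2 1.46 ± 0.18, 2.76-fold, adjusted p = 0.0161). Grk5, a receptor kinase, and Arrb2, a beta-arrestin, followed with log2 fold changes of 1.36 ± 0.42 and 0.58 ± 0.23 under the Pygo1 label (edgeR, adjusted p = 0.14 and 0.223). Median log2 fold changes of the list were 0.21, 0.12 and 0.04 under the Stc1, Pygo1 and Rlim labels, beside 0.014, -0.001 and 0.006 over all genes.

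The receptors of Cxcl12 did not pass the test. Cxcr4 was scarce, with 30 and 7 reads in the Stc1-labelled libraries, 63 and 55 in the Pygo1-labelled, 27 and 42 in the Rlim-labelled, and 49 and 41 in the WT libraries. Ackr3 had 29.2 and 9.70 CPM in the Stc1-labelled, 16.0 and 31.4 in the Pygo1-labelled, 21.8 and 20.5 in the Rlim-labelled, and 46.5 and 48.8 in the WT libraries. All 6 knockout-labelled libraries were below both WT libraries for Ackr3, with log2 fold changes of -1.30 ± 0.51, -1.01 ± 0.50 and -1.17 ± 0.51 (edgeR, adjusted p = 0.281, 0.310 and 0.288 for Stc1, Pygo1 and Rlim).

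Among glutathione transferases (22 of 23 tested) 1 gene was called, lower under the Pygo1 label, and 0 under the others; at an unadjusted p under 0.05 there were 8 for Stc1, 5 for Pygo1 and 5 for Rlim. It was Gstm4, a mu-class enzyme on chromosome 3, with 23.1 and 14.7 CPM in the Stc1-labelled libraries, 0.126 and 0.083 in the Pygo1-labelled, 18.2 and 18.7 in the Rlim-labelled, and 15.4 and 16.7 in the WT libraries (log2 -7.24 ± 0.34, adjusted p = 0.000499). Gstm4 belongs to a family of near copies, so its reads may be shared with them. Gstk1 and Gstm4 were thus low together in the Pygo1-labelled libraries, while in the Rlim-labelled libraries Gstk1 was low and Gstm4 was near its WT level. Next came Mgst2, a microsomal transferase, at -0.57 ± 0.13 and Gsta3, an alpha-class enzyme, at 1.96 ± 0.50 under the Pygo1 label, and Gstm6, of the mu class, at -1.24 ± 0.30 under the Rlim label (edgeR, adjusted p = 0.0798, 0.0974 and 0.0981). The list's medians were -0.50, -0.10 and -0.28 under the Stc1, Pygo1 and Rlim labels.

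In the RASSF family and Hippo core (16 of 18 tested) 0 genes were called under any label, with 3 at an unadjusted p under 0.05 under each. The smallest adjusted p was 0.105 for Mob1a, a Hippo kinase activator on chromosome 6, which had 42.3 and 27.0 CPM in the Stc1-labelled libraries, 28.2 and 26.7 in the Pygo1-labelled, 33.4 and 30.4 in the Rlim-labelled, and 51.0 and 44.3 in the WT libraries. Rassf5 and Rassf8, relatives of Rassf4, had log2 fold changes of 0.64 ± 0.18 and -0.61 ± 0.19 under the Pygo1 label (edgeR, adjusted p = 0.12 and 0.144), and the Hippo kinase Stk3 had -0.46 ± 0.15 under the Rlim label (0.172). Medians were -0.10, -0.04 and 0.03 under the Stc1, Pygo1 and Rlim labels.

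Of the MiT factors and lysosome genes (24 of 26 tested) 1 was called, higher under the Pygo1 label, and 0 under the others; at an unadjusted p under 0.05 there were 4 for Stc1, 7 for Pygo1 and 4 for Rlim. The called gene was Cd68, a lysosomal glycoprotein, with 2.67 and 2.64 CPM in the Stc1-labelled libraries, 7.61 and 6.52 in the Pygo1-labelled, 4.19 and 3.89 in the Rlim-labelled, and 1.81 and 2.39 in the WT libraries (log2 1.75 ± 0.22, 3.36-fold, adjusted p = 0.0169). Grn and Npc2, which encode lysosomal proteins, had log2 fold changes of 0.69 ± 0.16 and 0.52 ± 0.14 under the Pygo1 label (edgeR, adjusted p = 0.0855 and 0.104). Mitf, itself on chromosome 6, had 2.15 and 0.71 CPM in the Stc1-labelled, 2.72 and 3.17 in the Pygo1-labelled, 1.61 and 1.57 in the Rlim-labelled, and 2.98 and 2.05 in the WT libraries, and did not pass the test. Its genome 2 reads numbered 17 and 12 in the Stc1-labelled, 5 and 0 in the Pygo1-labelled, 0 and 0 in the Rlim-labelled, and 39 and 20 in the WT libraries. The list's medians were 0.01, 0.15 and -0.14 under the Stc1, Pygo1 and Rlim labels.

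The calls of Dpp4 and Cd68 were lost without WT library 1 (adjusted p = 0.223 and 0.238), without WT library 2 (0.246 and 0.203), and without Rlim-labelled library 1 (0.0656 and 0.0786) or 2 (0.0664 and 0.0794). Dpp4 was also lost without Pygo1-labelled library 2 (0.0515). Gstm4 was called in 13 of 13 alternatives.

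By Pearson correlation of log2 CPM over the 8 libraries, given as a description, the genes most like Gstk1 were Ift122 (chromosome 6, r = 0.985), Stx17 (chromosome 4, 0.982) and Invs (chromosome 4, 0.974). For Cxcl12 they were M6pr (chromosome 6, 0.988), Acaca (chromosome 11, 0.987) and Rpl38 (chromosome 11, 0.977). For Rassf4 they were Gmds (chromosome 13, 0.987), Nudt16 (chromosome 9, 0.981) and Slc35d1 (chromosome 4, 0.974), and for Gpnmb Eef1b2 (chromosome 1, 0.989), the pseudogene Rpl3-ps1 (chromosome X, 0.983) and Rtkn (chromosome 6, 0.971). Such genes follow in pattern but not in size: Ift122 had 52.6 and 47.7 CPM in the Stc1-labelled, 38.7 and 35.7 in the Pygo1-labelled, 31.7 and 30.5 in the Rlim-labelled, and 48.8 and 52.1 in the WT libraries. Of the 50 most alike genes, 15 for Gstk1, 16 for Cxcl12, 11 for Rassf4 and 8 for Gpnmb lay on chromosome 6 (30, 32, 22 and 16%), beside 4.98% of the 10441 genes compared. The 8 points share their libraries and the loss of chromosome 6 genome 2 reads.

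The fibroblast label was checked against its markers. Of 10 fibroblast markers 4 averaged at least 1 CPM, led by Vim at 833 to 1279 CPM, while Col1a2, Lum and Thy1 were at or near 0 in all libraries. Pax2 stood at 649 to 1158 CPM and Pax8 at 455 to 623 CPM, and both are known from kidney epithelium. Of the other epithelial markers, Krt8 had 0.213 to 1.68 CPM, Krt18 0.053 to 0.328 and Epcam 0.651 to 2.67. Pax2 and Pax8 thus made up most of the list's sum. Summed epithelial markers were 1331 to 1572 CPM in the Stc1-labelled, 1161 to 1216 in the Pygo1-labelled, 1584 to 1636 in the Rlim-labelled and 1276 to 1303 in the WT libraries. Among them Cdh1, singled out after its values were seen, had 20.1 and 6.36 CPM in the Stc1-labelled, 0.201 and 0.344 in the Pygo1-labelled, 0.498 and 0.514 in the Rlim-labelled, and 9.52 and 8.91 in the WT libraries, lowest under the Pygo1 label and highest in Stc1-labelled library 1. Of 5 endothelial markers 1 averaged at least 1 CPM, Cdh5, the cadherin of endothelial junctions. The summed level was 6.36 and 100.6 CPM in the Stc1-labelled libraries, 1.56 to 7.09 in the Pygo1-labelled, 7.96 to 8.01 in the Rlim-labelled and 1.68 to 1.78 in the WT libraries. Pecam1, an adhesion molecule of endothelial and blood cells, had 0.235 and 0.240 CPM in the Stc1-labelled, 0.592 and 0.509 in the Pygo1-labelled, 2.27 and 2.26 in the Rlim-labelled, and 0.026 and 0.163 in the WT libraries, while Emcn, Tek and Kdr were at or near 0 in all libraries. The part of these markers in the results was not tested.

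Gpnmb is known from macrophages and melanocytes, and some of their markers were at or near 0 while others were not. Of 5 melanocyte markers 1 averaged at least 1 CPM, Pmel, at 0.93 to 1.77 CPM. The macrophage marker Cd14 had 46.0 to 69.5 CPM. Tyr was at 0 in 8 libraries and Dct in 7, and Tyrobp was at 0 in 7 libraries and Adgre1 in 6. Of the 8 macrophage and leukocyte markers 3 averaged at least 1 CPM (Csf1r, Cd14 and Cd68), and their list summed to 97.3 to 113 CPM in the Stc1-labelled, 87.7 to 113 in the Pygo1-labelled, 85.7 to 85.9 in the Rlim-labelled and 104 to 111 in the WT libraries. Csf1r had 57.0 and 26.5 CPM in the Stc1-labelled, 33.4 and 36.1 in the Pygo1-labelled, 30.7 and 33.2 in the Rlim-labelled, and 49.5 and 50.7 in the WT libraries. Its order of libraries differed from that of Gpnmb, which was highest in Stc1-labelled library 2, where Csf1r was lowest.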

How the data were processed

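The data were read counts per gene for 8 libraries made with a TruSeq RNA kit, per the labels' protocols. HISAT2 2.0.5, Cufflinks, featureCounts and the build mm10 are named in the submitters' processing notes, without roles. The authors deposited raw counts for each Ensembl gene, as all assigned reads, genome 1 reads and genome 2 reads. Annotation, strand setting, multi-mapped reads and the assignment of reads to a genome are not given in the sources used here. Of 49670 genes, 49411 matched GENCODE M21 (GRCm38) for symbols and coordinates.

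A quasi-likelihood model of the 8 libraries was fitted with edgeR 4.0.16 under R 4.3.3, with TMM scaling, filterByExpr (17839 genes kept) and a mean for each group; the spread was estimated over all groups (common BCV of 24.6%, prior df of 2.94). Genes were called at a Benjamini-Hochberg adjusted p under 0.05 over all genes tested. The SE of a log2 fold change is its size over the root of the quasi-likelihood F. For the 4 genes no test is given. Shares leave out 329 genes with more reads of both genomes together than in all. The model and the shares were tested on simulated data.

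The 4 genes, the lists and the tests were chosen with earlier results of these data known. Named besides the 4 genes were their nearest neighbours, up to 4 chromosome 6 genes of at least 90% genome 2 and up to 4 list members with the smallest adjusted p, the 3 genes most like each of the 4 (mean of at least 5 CPM), and Cxcr4, Ackr3, Mitf and Xist; predicted genes and clone names were skipped, and 1 list member that the rule names is not reported here. Alternatives were DESeq2 1.42.0 and its size factors, no filter, the compared groups alone, a replicate block, other window and share limits, 5 added reads, and each library left out in turn. Figures were drawn with matplotlib 3.10.9.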

Additional observations from a re-analysis of the deposited data

How the results depend on the processing

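The log2 fold changes of the 4 genes moved by less than the replicate SD in 143 of 156 comparisons of an alternative with the value reported, and 2 turned sign, both for Gpnmb. Leaving out a library of another label hardly changes a fold change that does not use it. The SD also comes from the same libraries, so the 143 of 156 does not measure how firm the values are. Leaving out 1 library at a time gave, for Stc1, -0.44 to -0.053 for Gstk1, -1.66 to -0.026 for Cxcl12, -2.36 to -0.60 for Rassf4 and -0.024 to 1.22 for Gpnmb. For Pygo1 the ranges were -5.94 to -3.16, -3.98 to -3.43, -1.86 to -1.71 and -0.36 to 0.48 in the same order, and for Rlim -9.46 to -7.92, -7.03 to -6.86, -5.10 to -5.01 and -2.78 to -2.68. Genome 1 log2 changes without 1 library were, for Stc1, -0.54 to 0.09 for Gstk1, -1.98 to -1.25 for Cxcl12, -2.07 to -1.03 for Rassf4 and 0.79 to 2.19 for Gpnmb. For Pygo1 they were -3.48 to -2.59, -4.31 to -1.46, 0.90 to 2.53 and 5.09 to 5.68, and for Rlim -5.33 to -5.01, -5.25 to -5.06, -0.87 to -0.79 and 2.58 to 2.81, in that order. With 5 reads added in place of 1, the genome 1 changes under the Rlim label were -4.01 for Gstk1 and -4.49 for Cxcl12.

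Local shares without 1 library are the values of the 2 libraries given above. With 10 genes on each side they averaged 30.2% for Cxcl12 and 30.5% for Rassf4 under the Stc1 label and 0.132% for Gstk1 under the Rlim label. With neighbours of 30 to 70% genome 2 they averaged 35.3% for Cxcl12 under the Stc1 label, 7.29% for Gstk1 under the Pygo1 label, and 0.157% for Gstk1, 1.79% for Cxcl12 and 0.605% for Gpnmb under the Rlim label.

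Counts of called genes depended most on the processing, and the cause was not tested. Over all genes, in either direction, 103, 419 and 250 were called under the Stc1, Pygo1 and Rlim labels. No filter gave 361, 867 and 610, DESeq2 gave 967, 1707 and 1419, and the compared groups alone gave 0, 1699 and 8340. Counts for the lists and for chromosome 6 thus changed along with those over all genes, and nothing is read from their changes. For list members called (0 under the Stc1, 3 under the Pygo1 and 0 under the Rlim label), no filter gave 1 under the Stc1 label, DESeq2 gave 2, 14 and 4, and the compared groups alone gave 13 under the Pygo1 and 37 under the Rlim label. For chromosome 6 genes called lower (3, 16 and 20), no filter gave 10, 41 and 52, DESeq2 gave 25, 123 and 133, and the compared groups alone gave 0, 117 and 479. For the genes of at least 90% genome 2 called lower (0, 1 and 0), no filter gave 2 under the Pygo1 and 2 under the Rlim label, DESeq2 gave 1, 2 and 4, the compared groups alone gave 9 under the Rlim label, and a limit of 80% gave 2 and 2 under the Pygo1 and Rlim labels. Without 1 library, list members called ranged from 0 to 27, 1 to 22 and 0 to 14 under the Stc1, Pygo1 and Rlim labels, chromosome 6 genes called lower from 0 to 248, 0 to 265 and 0 to 265, and mainly genome 2 genes from 0 to 1, 0 to 5 and 0 to 5.

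The labels do not say whether same-numbered libraries of different labels were handled together. The correlation of their deviations from the group means was 0.010 and 0.174 between WT and the Stc1 and Pygo1 labels. It was 0.376 between WT and the Rlim label, and -0.203, -0.007 and 0.165 among the knockout labels. These values cannot settle whether the libraries are paired. With the replicate number as a block, 18, 109 and 26 genes in all were called in place of 103, 419 and 250, with 0, 4 and 1 chromosome 6 genes lower and 0 mainly genome 2 genes under the Pygo1 label; the blocked adjusted p was 0.0517 for Cd68, 0.0779 for Sem1, 0.0732 for Depp1, and 0.0627 and 0.0528 for Akr1b7 under the Pygo1 and Rlim labels. With 2 libraries a label, reads in single digits for Gstk1 and Cxcl12 under the Rlim label limit the precision of their folds and genome shares.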
